A study of Rattus norvegicus with 15 samples.

Results

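The genes described here encode pre-mRNA splicing factors and nuclear ribonucleoproteins: the Srsf genes (serine and arginine-rich splicing factors), the Hnrnp genes (heterogeneous nuclear ribonucleoproteins), the Snrp genes (proteins of the small nuclear ribonucleoproteins, snRNPs) and the Sf3a and Sf3b genes (subunits of the SF3A and SF3B complexes of the U2 snRNP). They were taken by name, as every protein-coding row of the expression table whose symbol begins with Srsf, Hnrnp, Snrp, Sf3a or Sf3b. The rule gave 53 of the 18127 protein-coding genes and 22436 genes in all: 11 Srsf, 19 Hnrnp, 14 Snrp and 9 Sf3 genes. RefSeq's table for a later rat build (GRCr8) holds all 53 and lists 2 of them, Snrpd2l and Snrpel1, as pseudogenes.

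Prostates of SD rats were profiled by RNA-seq in 3 groups of 5 samples, numbered 6 to 10 in each group. Control and Model both have "No" in the treatment field, Model being the untreated rat model of chronic prostatitis and chronic pelvic pain syndrome. LIPUS rats are that model after low-intensity pulsed ultrasound for 4 weeks. Titles name an ultrasound intensity of 1.0 W/cm2 where another label has 1.5 W/cm2, and which was applied is not settled here. The labels used here give no age, no agent for inducing prostatitis, and no statement that each sample is a separate animal or a pool. P-values thus rest on a spread between samples that may be technical only.

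Introns are removed from nuclear transcripts by the spliceosome, which is built from snRNPs. Each major snRNP other than U6 carries a ring of Sm proteins around its RNA, to which particle-specific proteins are added. SR proteins mostly bind exonic enhancers and recruit the spliceosome, while many hnRNPs bind exons or introns and can block splice sites. Several of both classes also limit their own transcripts through exons that cause decay of the message.

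Levels are FPKM, fragments scaled to gene length and library size, so they are already set per gene length. Libraries held 29672833 to 36401010 reads. The 13 mitochondrially encoded genes made up 3.75% to 4.69% of reads in the Control libraries, 23.5% to 43.5% in the Model libraries and 43.0% to 83.3% in the LIPUS libraries, highest in LIPUS 10. Because mitochondrial reads enter the total that FPKM are set against, each comparison is given as deposited and after rescaling to nuclear genes, in which each library was divided by its median ratio over 10300 nuclear genes. Those divisors were 0.972 to 1.06 in Control, 0.528 to 0.673 in Model and 0.179 to 0.652 in LIPUS. They did not follow the mitochondrial share alone: Model 7, with 43.5% mitochondrial reads, had 0.673, and Model 10, with 23.5%, had 0.613. In bulk tissue, fewer cells of a type and less RNA per cell cannot be told apart. Of 11 prostate epithelium markers all passed the filter on low values, and Pbsn reached 3199 to 55910.5 in Control, 304 to 137386 in Model and 2919 to 34772 in LIPUS in FPKM as deposited. Model 7 was the low Model library for Pbsn and stood apart from the other Model libraries for many of the splicing genes, so values without it are given for the main results that it touches.

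The 53 genes together made up 0.547% ± 0.0361 of all reads in Control libraries, 0.376% ± 0.0875 in Model libraries and 0.251% ± 0.110 in LIPUS libraries (mean ± SD over 5 each). As a share of nuclear reads the same sums were 0.571% ± 0.0377, 0.591% ± 0.189 and 0.639% ± 0.141 (mean ± SD over 5 each). The mean share of all reads was lower in the groups with more mitochondrial reads, though within Model the library with the most mitochondrial reads, Model 7, had the highest share (0.523%). The share of nuclear reads overlapped between the 3 groups. Model 7 gave 0.927% of nuclear reads and the other 4 Model libraries gave 0.483% to 0.537%. The Control range was 0.524% to 0.616%, and the LIPUS range was 0.412% to 0.755%.

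**Figure D1:**
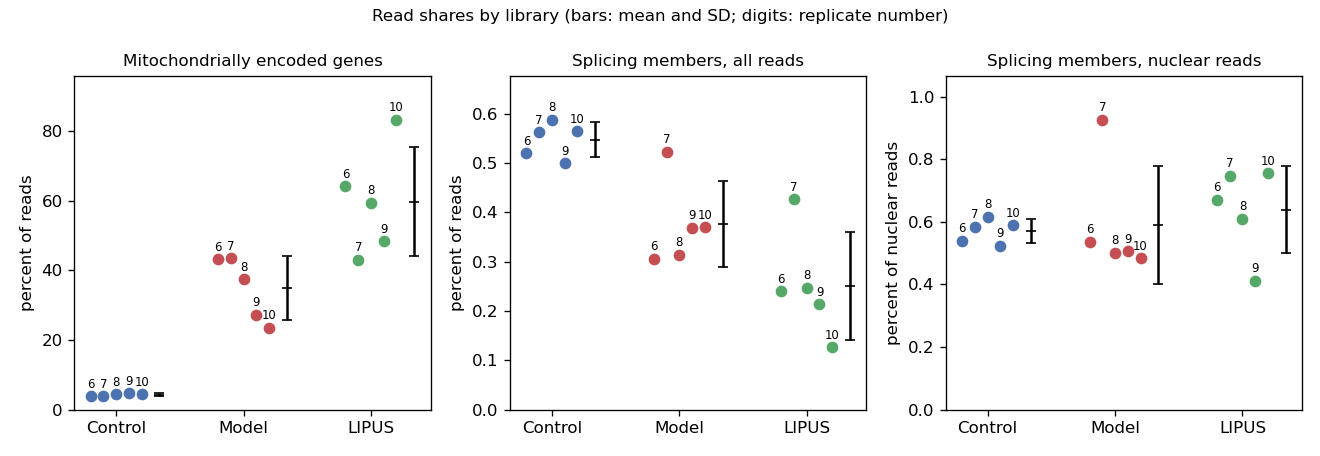
Percent of reads from mitochondrially encoded genes (left), percent of all reads from the 53 splicing genes (centre) and percent of nuclear reads from them (right), by library. Points are libraries with their replicate number, and bars are the mean and SD of 5. The splicing genes' share of all reads is at most 0.588 in Control and lies at 0.126 to 0.427 in LIPUS, while their share of nuclear reads overlaps between groups.

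In Control the most abundant genes of each family on the rescaled scale were Srsf5 (72.9 ± 8.61) and Srsf3 (56.6 ± 4.21), Hnrnpab (157 ± 8.23) and Hnrnpk (101 ± 3.98), Snrpd2 (111 ± 19.9) and Snrpe (78.3 ± 10.1), and Sf3b6 (67.9 ± 13.6) and Sf3b5 (52.4 ± 4.81), all mean ± SD of 5. Hnrnpk binds C-rich RNA, Sf3b6 contacts the branch point adenosine, and Snrpd2 and Snrpe are Sm ring proteins. Genes at the bottom were Srsf12 at 0.744 ± 0.149, Snrpd2l at 0.705 ± 0.196 and Snrpep2 at 0.0124 ± 0.0277 (SD, n = 5). Snrpep2 had a value above 0 in only 2 of the 15 libraries, 0.0602 FPKM in Control 6 and 0.805 FPKM in LIPUS 6, and failed the filter of more than 0.5 FPKM in at least 5 samples. The other 52 were tested with limma on log2(FPKM + 0.1) among 12490 genes, with Benjamini-Hochberg adjustment over all of them and a call at an adjusted p under 0.05. Log2 changes and folds are on that scale and understate changes of low genes.

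Model against Control asks how the transcripts stand in the untreated disease model. As deposited, 2 of the 52 genes were higher and 19 lower in Model, where 46.0% of all tested genes were called, 2.95% higher and 43.1% lower. Groups did not overlap for 2 genes above and 11 below, beside 3.16% and 41.4% of all tested genes. The median log2 change was -0.61 over the splicing genes and -0.90 over all genes. After rescaling, 14 were higher and 5 lower, where 34.8% of all 12477 nuclear genes were called, 15.1% higher and 19.7% lower. Groups did not overlap for 13 genes above and 3 below, beside 14.0% and 18.3% of nuclear genes. The median was then 0.14 over the splicing genes and -0.16 over all genes. Snrpe and Snrpf were called higher as deposited as well as after rescaling. The direction of the count depended on the scaling. With equal nuclear sums, 4 were higher and 13 lower. With equal nuclear sums after leaving out secretory genes, 2 were higher and 33 lower, and quantile normalization gave 6 and 12. Centring on the median splicing gene, a scaling set by these genes themselves, gave 13 and 7. Over 6 scalings the median change of all genes ran from -1.14 to -0.03.

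There were 7 genes called in 1 direction under all 6 scalings of Model against Control. The same count over all tested genes is not given here, so whether 7 is many for this number of genes cannot be judged. Snrpe and Snrpf were higher, and Hnrnpr, Hnrnpul2, Sf3a2, Sf3b4 and Srsf5 were lower. Their values follow by family. The plot of levels by library shows 6 of them with Srsf3 and Hnrnpa1.

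**Figure D2:**
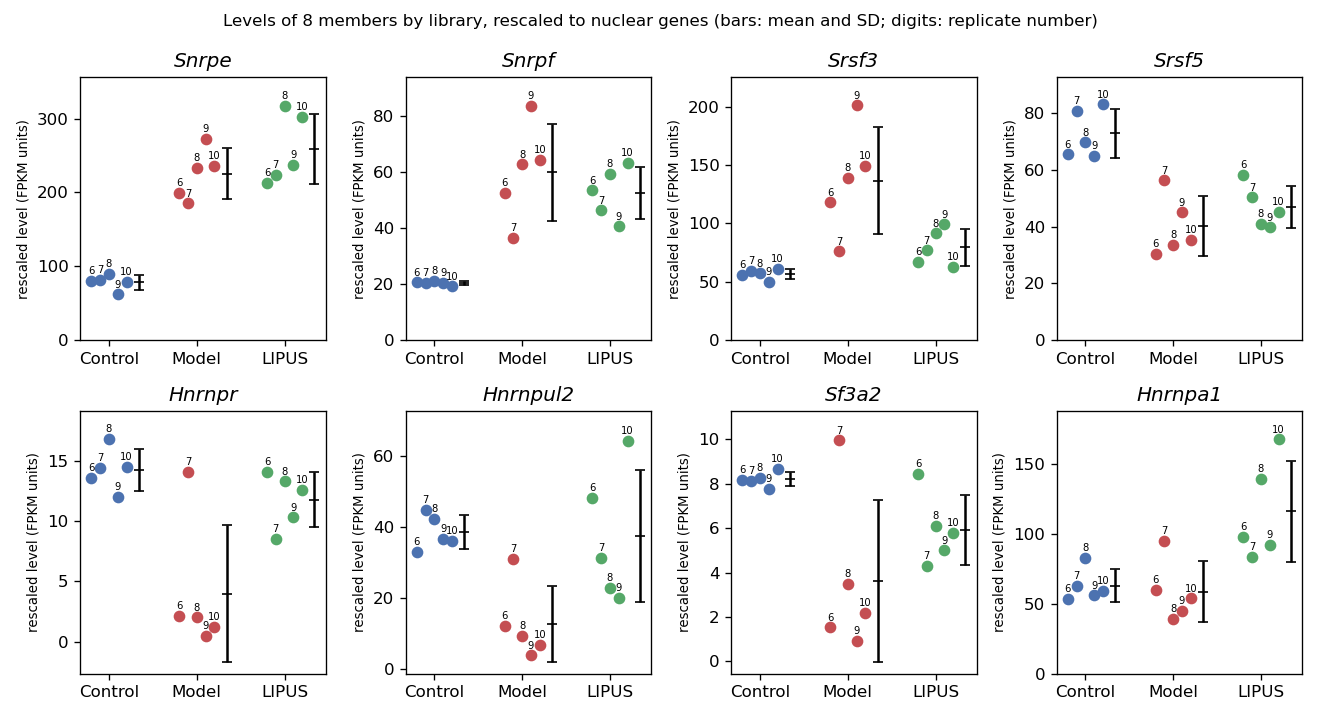
Rescaled level (FPKM divided by the library's nuclear factor, linear axis) of 8 splicing genes in the 15 libraries. Points are libraries with their replicate number, and bars are the mean and SD of 5. Snrpe and Snrpf lie higher in every Model and LIPUS library than in every Control library, Srsf5 lies lower, and Model 7 lies within or above the Control range for Hnrnpr and Sf3a2.

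Among the Sm ring genes, Snrpe, Snrpf, Snrpd2 and Snrpg rose in Model after rescaling. Snrpe stood at 79.7, 81.6, 89.6, 61.9 and 78.9 in Control 6 to 10 and at 199.8, 185, 233, 273 and 236 in Model 6 to 10 on the rescaled scale. The groups did not overlap. Snrpe was 2.87-fold higher (log2 change 1.52, SE 0.16, adjusted p = 1.31e-05, limma). As deposited its change was 0.74 (SE 0.27, adjusted p = 0.0320), and that call was kept in 8 of 15 fits that each left out 1 library.

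Snrpf stood at 20.6, 20.3, 21.2, 20.4 and 19.1 in Control 6 to 10 and at 52.5, 36.4, 62.8, 83.7 and 64.3 in Model 6 to 10, again without overlap and lowest in Model 7. Its change was 2.84-fold (log2 1.50, SE 0.19, adjusted p = 4.97e-05, limma). As deposited Snrpf changed by 0.72 (SE 0.27, adjusted p = 0.0396, limma), kept in 6 of 15 fits that left out 1 library. Snrpd2 changed by 1.18 (SE 0.18) and Snrpg by 1.02 (SE 0.25) on the log2 scale after rescaling, and all Model libraries lay above all Control libraries for both. Snrpd2 stayed positive under all 6 scalings, from 0.14 to 1.18, whereas Snrpg fell to -0.02 under the sum without secretory genes. The other Sm ring genes did not pass after rescaling: Snrpd1 changed by 0.32, Snrpd3 by -0.10 and Snrpb by -0.64. As deposited Snrpb was called lower, at -1.41 (SE 0.36, adjusted p = 0.00506, limma), and Snrpd1 and Snrpd3 did not pass. Snrpb was called lower in 3 of 6 scalings.

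Snrpel1 resembles Snrpe by name, and its counts are uncertain because reads of near-identical copies can be split or shared in counting. It rose by 1.93 (SE 0.50, adjusted p = 0.00792, limma), from 8.99 ± 1.81 (SD, n = 5) in Control to 39.3 ± 19.8 (SD, n = 5) in Model. Model 7, at 10.9, lay barely above the highest Control library, and the change was 2.34 without it. After rescaling, particle-specific proteins of the U1 snRNP did not pass, with Snrpa at 0.50 (SE 0.32) and Snrpc at -0.34 (SE 0.30). Those of the U2 snRNP did not pass either, with Snrpa1 at 0.56 (SE 0.22) and Snrpb2 at 0.06 (SE 0.25). As deposited Snrpc was called lower, at -1.11 (SE 0.34, adjusted p = 0.0134, limma), and Snrpa, Snrpa1 and Snrpb2 did not pass.

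Of the 11 SR protein genes, Srsf3, Srsf6 and Srsf9 rose and Srsf5 fell in Model after rescaling. Srsf3, a small SR protein that also works in RNA export, stood at 56.0, 59.0, 57.0, 50 and 61.2 in Control 6 to 10 and at 118, 75.9, 139, 201 and 149 in Model 6 to 10. All Model libraries lay above Control, with Model 7 nearest. The change was 2.30-fold (log2 1.20, SE 0.22, adjusted p = 0.000663, limma) and 1.40 without Model 7. As deposited the change of Srsf3 was 0.42 (SE 0.34) and did not pass. It was positive under all 6 scalings and called in 4.

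Srsf5, which binds exonic enhancers, went the other way. Its levels were 65.5, 80.9, 69.8, 65.1 and 83.2 in Control 6 to 10 and 30.4, 56.4, 33.6, 45.0 and 35.4 in Model 6 to 10, with no overlap. Srsf5 was 1.85-fold lower (log2 change -0.89, SE 0.18, adjusted p = 0.00133, limma), and as deposited it changed by -1.67 (SE 0.33). The log2 ratio of Srsf3 to Srsf5 within a library does not depend on scaling. Its mean ± SD over 5 was -0.36 ± 0.10 for Control libraries, 1.73 ± 0.73 for Model libraries and 0.75 ± 0.47 for LIPUS libraries. It was below 0 in every Control library and above 0 in every other library, with 0.43 in Model 7 and 1.95 to 2.15 in the other Model libraries. The pair was chosen after its values were seen, so the ratio is a description without a test.

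Srsf6 changed by 0.66 (SE 0.15) and Srsf9 by 0.61 (SE 0.19) after rescaling. Both were negative as deposited, at -0.13 for Srsf6 and -0.17 for Srsf9, and under the sum without secretory genes, at -0.38 and -0.42. The remaining 7 SR genes did not pass, among them Srsf1 at 0.19 (SE 0.14), Srsf2 at 0.12 (SE 0.17), Srsf10 at -0.00 (SE 0.20) and Srsf11 at -0.03 (SE 0.21). Srsf4 changed by -0.46 (SE 0.22) and Srsf7 by 0.45 (SE 0.28) after rescaling. As deposited Srsf4 was called lower, at -1.22 (SE 0.31), and Srsf7 did not pass. Srsf12, at 0 to 2.99 FPKM as deposited in Model, had an SE of 0.98.

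Among the 19 hnRNP genes, Hnrnpa3, Hnrnph3, Hnrnph2 and Hnrnpab rose and Hnrnpr and Hnrnpul2 fell. Hnrnpr, an RNA-binding protein related to Syncrip, gave the lowest change of all 52 genes. It stood at 13.6, 14.4, 16.8, 12 and 14.5 in Control 6 to 10 and at 2.11, 14.1, 2.01, 0.461 and 1.20 in Model 6 to 10. Only Model 7 lay in the Control range. Hnrnpr was 6.57-fold lower (log2 change -2.72, SE 0.58, adjusted p = 0.00234, limma), and the change was -3.39 without Model 7.

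Hnrnpul2, related to the scaffold protein Hnrnpu, stood at 33.0, 44.8, 42.3, 36.8 and 36.1 in Control 6 to 10 and at 12.1, 31.1, 9.28, 3.85 and 6.79 in Model 6 to 10. The groups did not overlap, by a small margin for Model 7. Its change was -1.95 (SE 0.44, adjusted p = 0.00339, limma) and -2.36 without Model 7. Its relatives did not pass after rescaling, with Hnrnpu at 0.04 (SE 0.15) and Hnrnpul1 at -0.27 (SE 0.14). As deposited Hnrnpul1 was called lower, at -1.05 (SE 0.33), and Hnrnpu, at -0.74 (SE 0.33), did not pass. The log2 ratio of Snrpe to Hnrnpr, chosen after the values were seen, had a mean ± SD over 5 of 2.45 ± 0.07 for Control libraries, 6.61 ± 1.85 for Model libraries and 4.43 ± 0.31 for LIPUS libraries.

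Hnrnpa3 changed by 0.83 (SE 0.15), from 68.6 ± 5.38 (SD, n = 5) to 123 ± 19.1 (SD, n = 5). Hnrnph3 changed by 0.74 (SE 0.23), Hnrnph2 by 0.57 (SE 0.17) and Hnrnpab by 0.51 (SE 0.11). Under the sum without secretory genes Hnrnpa3 was at -0.21, Hnrnph3 at -0.28 and Hnrnph2 at -0.46, and as deposited Hnrnph3 and Hnrnph2 were also below 0. Hnrnpab rose in every Model library above every Control library on the rescaled scale, but it was at -0.27 as deposited, -0.03 with equal nuclear sums and -0.09 with quantile normalization, and under the sum without secretory genes it was called lower, at -0.52. The abundant Hnrnpa2b1, Hnrnpf, Hnrnpk, Hnrnpc and Hnrnpm had changes of -0.11, -0.22, 0.33, 0.21 and -0.30 and did not pass. Hnrnpl, at -0.39 (SE 0.15), missed the threshold with an adjusted p of 0.0505 (limma).

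The SF3A and SF3B complexes hold the branch point of the intron in the U2 snRNP, and their genes split. Sf3a2 fell from 8.19, 8.12, 8.26, 7.77 and 8.67 in Control 6 to 10 to 1.54, 9.95, 3.50, 0.930 and 2.18 in Model 6 to 10. Only Model 7 was not below Control. The change was 3.09-fold down (log2 -1.63, SE 0.45, adjusted p = 0.0110, limma) and -2.11 without Model 7. Sf3b4 changed by -1.36 (SE 0.47, adjusted p = 0.0349, limma), with Model 7 at 16.2 above the Control range of 11 to 13.4. That call was kept in 6 of 15 fits that left out 1 library, and the change was -1.82 without Model 7.

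Sf3b5, a small SF3B subunit, rose by 0.76 (SE 0.16) and Sf3b2 by 0.61 (SE 0.13), each without overlap after rescaling. Sf3b5 was at -0.02 as deposited and -0.27 under the sum without secretory genes, and Sf3b2 at -0.17 and -0.43. Sf3b1, which holds the branch site, changed by -0.38 (SE 0.24) and Sf3b3 by -0.91 (SE 0.34, adjusted p = 0.0509, limma). Neither passed. In the other 4 Model libraries Sf3b3 was at 5.38 to 8.26, below the Control range of 15.3 to 16.8, and Model 7 was at 23.9. As deposited Sf3b3 was called lower, at -1.68 with Model 7 and -2.10 without it. Sf3b1 was also called lower as deposited, at -1.16 with Model 7 and -1.39 without it. Without Model 7, 14 genes were higher and 11 lower in this comparison after rescaling, and 3 were higher and 25 lower as deposited.

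**Figure D3:**
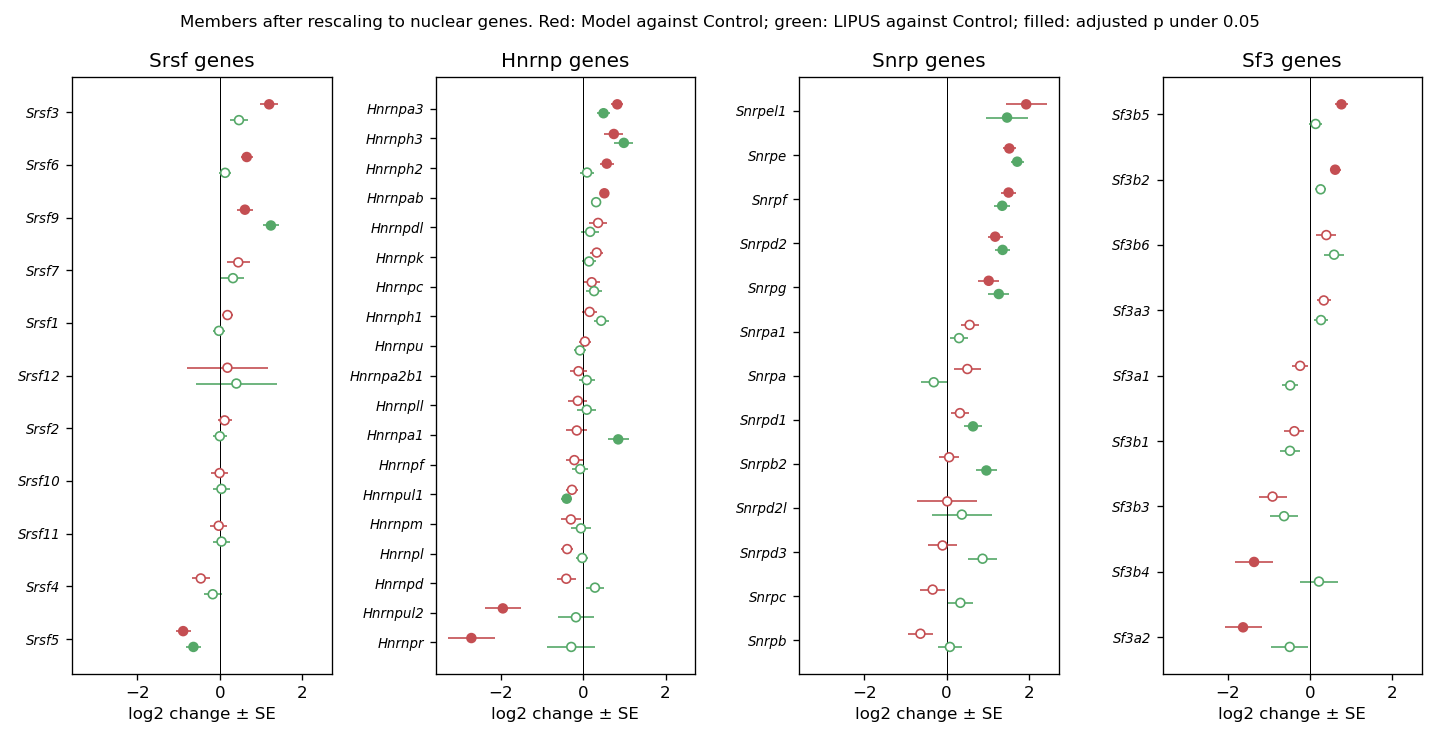
Log2 change after rescaling to nuclear genes (x axis, bars are SE) of the 52 tested splicing genes by family, for Model against Control (red) and LIPUS against Control (green). Filled points had an adjusted p under 0.05. Snrpe, Snrpf, Snrpd2 and Snrpg are filled on the right for both groups, and Hnrnpr and Hnrnpul2 are far left for Model and near 0 for LIPUS.

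LIPUS against Model asks how the treated tissue differs from the untreated model. As deposited, 0 of the 52 genes were higher and 8 lower in LIPUS, where 14.6% of all tested genes were called, 1.31% higher and 13.3% lower. Groups did not overlap for 0 genes above and 3 below, beside 0.536% and 4.22% of all tested genes. After rescaling, 3 were higher and 1 lower, where 3.98% of nuclear genes were called, 2.55% higher and 1.43% lower. Groups did not overlap for 0 genes above and 2 below, beside 1.62% and 1.29% of nuclear genes. With an unadjusted p under 0.05 (limma) there were 19 of the 52 genes after rescaling, beside 3151 of 12477 nuclear genes. As deposited there were 22 of the 52, beside 4705 of 12490 tested genes. The median change over the splicing genes was -0.47 as deposited and 0.19 after rescaling, beside -0.60 and -0.03 over all genes. No gene was called under all 6 scalings.

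The genes that rose in LIPUS after rescaling were Hnrnpr, Hnrnpul2 and Hnrnpa1. Hnrnpr stood at 14.1, 8.53, 13.3, 10.3 and 12.6 in LIPUS 6 to 10, beside the 0.461 to 2.11 of the Model libraries other than Model 7. Its change was 2.43 (SE 0.58, adjusted p = 0.0356, limma) and 3.10 without Model 7. The call was kept in 3 of 15 fits that left out 1 library. Set against Control, Hnrnpr in LIPUS changed by -0.29 (SE 0.58) after rescaling and did not pass, whereas as deposited it was called lower, at -1.70 (SE 0.60).

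Hnrnpul2 stood at 48.2, 31.4, 22.9, 20.1 and 64.3 in LIPUS 6 to 10. The range covered that of Control, and LIPUS 8 and 9 lay below Model 7. The change from Model was 1.77 (SE 0.44, adjusted p = 0.0413, limma). It was 2.19 without Model 7, and the call was kept in 3 of 15 fits that left out 1 library. Against Control, Hnrnpul2 in LIPUS differed by -0.18 (SE 0.44) after rescaling and did not pass, whereas as deposited it was called lower, at -1.61 (SE 0.46). How near LIPUS stood to Control for both genes thus rests on the scaling.

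Hnrnpa1, an abundant shuttling hnRNP that often represses exons, stood at 53.7, 62.9, 83.1, 56.0 and 59.2 in Control, 60.0, 95.3, 39.2, 44.8 and 53.9 in Model and 98.0, 83.6, 139.9, 92.5 and 168 in LIPUS, in the order of samples 6 to 10. LIPUS lay above Control throughout and overlapped Model through Model 7. Its change was 1.01 (SE 0.25, adjusted p = 0.0373, limma) from Model and 0.85 (SE 0.25, adjusted p = 0.0201, limma) from Control. As deposited, the change from Model was 0.35 (SE 0.31) and did not pass. Hnrnpa1 has near-identical copies in mammalian genomes, so its counts are uncertain. The call from Model was kept in 4 of 15 fits that left out 1 library, and the change was 1.20 without Model 7.

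Sf3b5 was the gene that fell. It stood at 69.5, 94.3, 95.8, 72.9 and 119 in Model 6 to 10 and at 61.8, 50.5, 63.0, 66.6 and 47.0 in LIPUS 6 to 10, with no overlap. Its change was -0.63 (SE 0.16, adjusted p = 0.0454, limma) after rescaling and -1.28 (SE 0.32, adjusted p = 0.0283, limma) as deposited. The calls were kept in 3 and 10 of 15 fits that left out 1 library. Near the threshold after rescaling were Snrpb2 at 0.91 (SE 0.25), Srsf6 at -0.53 (SE 0.15), Srsf3 at -0.73 (SE 0.22), Sf3b4 at 1.58 (SE 0.47) and Srsf9 at 0.63 (SE 0.19), none of which passed. The as deposited calls were Srsf3, Srsf6, Srsf1, Hnrnpa3, Hnrnpab, Hnrnph2, Snrpa and Sf3b5, all lower in LIPUS.

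The calls of LIPUS against Model moved with the samples. With only Model and LIPUS samples in the fit, 0 genes were called on either scale. Without Model 7, 14 were higher and 4 lower after rescaling, and 4 were higher and 13 lower as deposited. Without LIPUS 7, 24 were lower as deposited. Leaving out Model 6, 8, 9 or 10 or LIPUS 6 gave 0 calls as deposited, and leaving out any Control library or LIPUS 8, 9 or 10 gave 5. After rescaling, leaving out any Control library, Model 6, 8, 9 or 10, or LIPUS 6, 8 or 10 gave 0 or 1. LIPUS 7 had the lowest mitochondrial share of its group, 43.0% of reads.

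LIPUS against Control asks how far the treated tissue stands from the control tissue. As deposited, 0 genes were higher and 40 lower, where 75.4% of all tested genes were called, 0.953% higher and 74.4% lower. Groups did not overlap for 0 genes above and 34 below, beside 0.416% and 59.4% of all tested genes. After rescaling, 11 were higher and 2 lower, where 25.0% of nuclear genes were called, 11.5% higher and 13.5% lower. Groups did not overlap for 12 genes above and 3 below, beside 11.1% and 15.2% of nuclear genes. Without Control 6, 7 were higher and 1 lower. The median change was -1.23 as deposited and 0.19 after rescaling over the splicing genes, and -1.48 and -0.17 over all genes. This comparison shares its samples with the other 2, so its values are not independent of them. The split again moved with scaling: 5 higher and 2 lower with equal nuclear sums, 4 and 13 with sums without secretory genes, 8 and 4 with quantile normalization, and 6 and 5 when centred on the median splicing gene.

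After rescaling, 7 of 13 tested Snrp genes rose in LIPUS and none fell, 53.8% higher beside 11.5% of all nuclear genes. As deposited, 0 of the 13 were higher and 5 lower, 38.5% lower beside 74.4% of all tested genes. Snrpe stood at 213, 224, 317, 237 and 302 in LIPUS 6 to 10, all above Control, a change of 1.71 (SE 0.16, adjusted p = 2.62e-05, limma). Snrpf stood at 53.4, 46.3, 59.4, 40.6 and 63.2 in LIPUS 6 to 10, all above Control, and changed by 1.35 (SE 0.19). As deposited, Snrpe changed by 0.28 (SE 0.27) and Snrpf by -0.08 (SE 0.27), and neither passed. Snrpd2 changed by 1.36 (SE 0.18) and Snrpg by 1.27 (SE 0.25) after rescaling, both above Control in every library. Snrpg reached 357 in LIPUS 10, beside 126 to 212 in the other LIPUS libraries.

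Snrpb2, which binds U2 RNA, changed by 0.97 (SE 0.25) and rose from 26.1 ± 2.88 (SD, n = 5) to 52.4 ± 15.1 (SD, n = 5). Snrpel1 changed by 1.47 (SE 0.50), kept in 3 of 15 fits that left out 1 library, and stood at 6.28 in LIPUS 10. Snrpd1 was called higher after rescaling (0.64, SE 0.21) and lower as deposited (-0.79, SE 0.32), kept in 7 and 10 of 15 fits that left out 1 library. Hnrnpa3 did the same, at 0.49 (SE 0.15) and -0.94 (SE 0.25). For these 2 genes the direction rests on the scaling.

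Srsf9 gave the highest change of the SR genes in LIPUS, 1.24 (SE 0.19, adjusted p = 0.000381, limma). It stood at 14.4, 19.0, 18.1, 12.8 and 13.1 in Control 6 to 10 and at 37.5, 33.1, 42.8, 29.5 and 40.0 in LIPUS 6 to 10 after rescaling, with no overlap. As deposited Srsf9 changed by -0.19 (SE 0.32) and did not pass. Hnrnph3 rose by 0.99 (SE 0.23) after rescaling and was at -0.43 (SE 0.27) as deposited.

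Srsf5 was lower under all 6 scalings of LIPUS against Control. It stood at 58.2, 50.4, 41.1, 39.8 and 45.3 in LIPUS 6 to 10, below every Control library. Its change was -0.64 (SE 0.18, adjusted p = 0.0155, limma) after rescaling and -2.07 (SE 0.33) as deposited. Hnrnpul1 changed by -0.40 (SE 0.14, adjusted p = 0.0423, limma), a call kept in 5 of 15 fits that left out 1 library. No Sf3 gene passed after rescaling, where 25.0% of nuclear genes were called. All 9 were lower as deposited, beside 74.4% of all tested genes.

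Gene length went with the direction of change. Recovered lengths of the 53 genes ran from 417 bases (Snrpg) to 7504 bases (Hnrnpu), and the short Snrp genes lay on the high side. After rescaling, 6 of 8 tested splicing genes under 1 kb were higher in Model and 0 lower, where 43.5% of all tested genes of that length were higher and 6.64% lower. Over 4 kb, 1 of 11 was higher and 0 lower, where 4.83% of all genes were higher and 30.8% lower. In LIPUS against Control 5 of 8 under 1 kb were higher, where 40.4% of all such genes were. Across the 52 genes the log2 change correlated with log10 length at r = -0.388 in Model against Control, -0.676 in LIPUS against Control and -0.0808 in LIPUS against Model. Across all tested genes r was -0.262, -0.329 and -0.0291. These are descriptions across genes, which share the libraries and are not replicates, and the part of length in the results was not tested. In Model against Control, Hnrnpr, Hnrnpul2, Sf3a2 and Sf3b4 lay below the median of their length class, and Srsf3 above it.

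**Figure D4:**
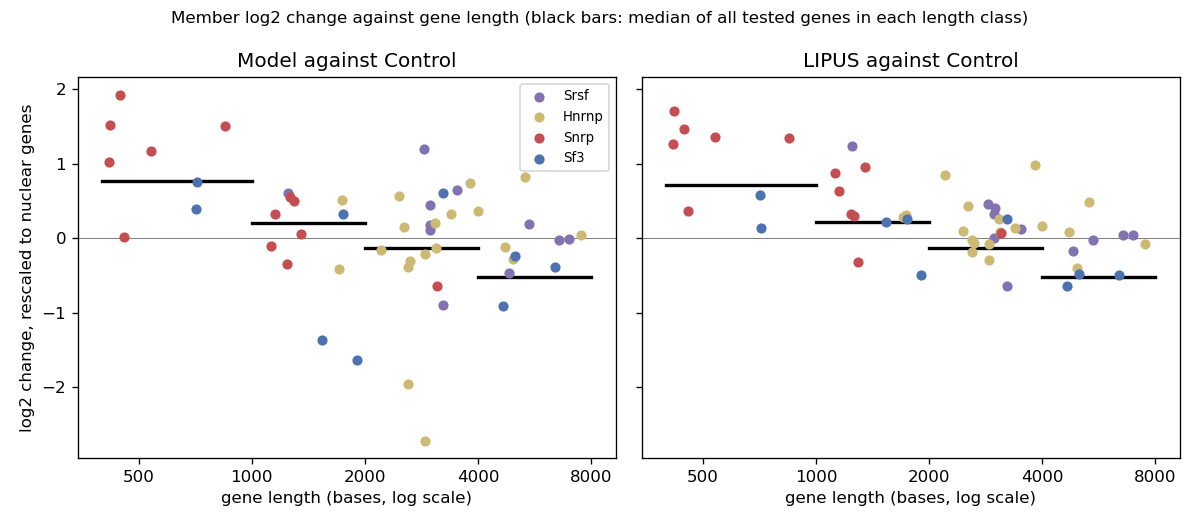
Log2 change after rescaling of the 52 tested splicing genes against gene length (log axis), for Model against Control (left) and LIPUS against Control (right), coloured by family. Black bars are medians of all tested genes under 1 kb, from 1 to 2 kb, 2 to 4 kb and over 4 kb, which run from 0.77 to -0.52 in Model. Short Snrp genes sit high, and Hnrnpr and Hnrnpul2 sit lowest in Model.

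Marker sums of some other cell types differed between the groups. The summed rescaled level of 7 genes of dividing cells (7 of 7 tested) ran from 44.7 to 85.5 in Control, 0.578 to 2.01 in Model and 5.01 to 9.33 in LIPUS, and Top2a was at 0 in 4 of 5 Model libraries. The sum over 7 fibroblast and matrix genes ran from 735 to 1244 in Control, 91.7 to 263 in Model and 121 to 798 in LIPUS. The sum over 7 macrophage genes ran from 85.2 to 132 in Control, 66.6 to 429 in Model and 164 to 870 in LIPUS, with medians of 94.5, 83.4 and 411. The highest Model value was that of Model 7, where Lyz2 was at 262 FPKM as deposited, beside 23.7 to 32.4 in the other Model libraries. The macrophage genes did not all move alike there. As deposited, Lyz2 and Cd68 (12.3 FPKM, beside 1.79 to 3.96 in Control) lay above Control in Model 7. Csf1r (1.06, beside 3.12 to 5.67), Mrc1 (0.529, beside 2.30 to 3.78), Adgre1, Cd163 and Cd14 lay below Control. For 6 smooth muscle genes the sum ran from 1096 to 2756 in Control, 127 to 1173 in Model and 322 to 1627 in LIPUS. Its genes did not all move alike. As deposited Des was at 35.6 to 93.0 FPKM in Control and at 181, 5.79, 124, 87.8 and 191 FPKM in Model 6 to 10. The part of these cell types in the splicing gene results was not tested.

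The promoters of 4 of the genes are shown because 2 rose (Snrpe, Srsf3) and 2 fell (Srsf5, Hnrnpr) in Model. Each is the 250 bases before the gene's start from RefSeq (GRCr8), 5′ to 3′ on the gene's strand. Capitals mark CCGGAAG, the core of an ETS-type site, and CCAAT, on either strand.
Snrpe promoter, chr13:47609252-47609501, minus strand: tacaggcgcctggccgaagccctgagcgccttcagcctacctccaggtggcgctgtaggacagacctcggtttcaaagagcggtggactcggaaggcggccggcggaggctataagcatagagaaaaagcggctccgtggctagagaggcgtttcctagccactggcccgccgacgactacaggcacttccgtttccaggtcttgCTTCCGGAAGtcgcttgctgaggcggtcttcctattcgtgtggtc
Srsf3 promoter, chr20:7093335-7093584, plus strand: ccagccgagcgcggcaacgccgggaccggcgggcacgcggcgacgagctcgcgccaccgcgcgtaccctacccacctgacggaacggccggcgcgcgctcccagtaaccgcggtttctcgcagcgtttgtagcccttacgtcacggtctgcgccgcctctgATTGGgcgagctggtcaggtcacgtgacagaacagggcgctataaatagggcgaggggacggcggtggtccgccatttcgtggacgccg
Srsf5 promoter, chr6:106336506-106336755, plus strand: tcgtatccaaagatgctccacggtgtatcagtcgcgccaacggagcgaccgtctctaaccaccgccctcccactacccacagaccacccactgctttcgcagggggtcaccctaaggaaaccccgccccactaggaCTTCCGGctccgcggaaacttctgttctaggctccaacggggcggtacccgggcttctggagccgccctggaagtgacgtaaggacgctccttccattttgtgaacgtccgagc
Hnrnpr promoter, chr5:153826269-153826518, plus strand: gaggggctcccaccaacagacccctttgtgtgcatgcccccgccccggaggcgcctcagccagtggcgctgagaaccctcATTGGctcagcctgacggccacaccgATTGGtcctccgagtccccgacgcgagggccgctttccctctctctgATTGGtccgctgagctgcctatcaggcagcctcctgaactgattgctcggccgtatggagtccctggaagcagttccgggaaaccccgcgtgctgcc

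The letters CCGGAAG stood in the promoters of 14 of the 49 splicing genes with an entry (28.6%), beside 7.74% of 27457 genes. CCAAT stood in 23 (46.9%, beside 34.3%), GGGCGG in 28 (57.1%, beside 32.4%), CACGTG in 5 (10.2%, beside 5.79%) and TATAAA in 6 (12.2%, beside 13.1%), each on either strand and in the same 250 bases. Snrpe holds CCGGAAG on both strands, overlapping in a single stretch, and Srsf5 holds it once, though Snrpe rose and Srsf5 fell. Hnrnpr holds CCAAT 3 times and Srsf3 once, again with opposite directions. A match is a description of letters and not a bound site.

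Outside the named families, 131 genes of the spliceosome and its regulators were listed, of which 130 were in the table and 126 were tested. After rescaling, 28 were higher and 18 lower in Model against Control, 0 higher and 4 lower in LIPUS against Model, and 17 higher and 7 lower in LIPUS against Control. These are 22.2% higher and 14.3% lower in Model against Control, beside 15.1% and 19.7% of all nuclear genes. In LIPUS against Model 3.17% were lower, beside 1.43% of all. In LIPUS against Control 13.5% were higher and 5.56% lower, beside 11.5% and 13.5% of all. As deposited, 2 were higher and 52 lower in Model against Control (1.59% and 41.3%, beside 2.95% and 43.1% of all tested genes). LIPUS against Model then gave 0 higher and 23 lower (18.3% lower, beside 13.3%). LIPUS against Control as deposited gave 0 higher and 109 lower (86.5% lower, beside 74.4%). The Lsm genes, whose proteins form the Sm-like ring of U6 snRNP or of cytoplasmic decay, were mostly higher in Model after rescaling. Of 8, 7 were higher in Model and 5 in LIPUS against Control, with Lsm5 changing by 1.72 (SE 0.24) and 1.11 (SE 0.24). As deposited, 1 of the 8 was higher and 0 lower in Model, and 0 were higher and 3 lower in LIPUS against Control. Lsm3 and Lsm7 turned negative in Model under the sum without secretory genes, at -0.10 and -0.32. Apart from Lsm6, at 4066 bases and -0.10 (SE 0.27) in Model, the Lsm genes are short, from 533 bases (Lsm7) to 1711 bases (Lsm4).

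Of 55 core spliceosome genes, 9 were higher and 9 lower in Model after rescaling, which is 16.4% each way and near the 15.1% higher and 19.7% lower of all nuclear genes. Txnl4a, a small protein of the tri-snRNP, gave the highest change, 2.17 (SE 0.33, adjusted p = 0.000175, limma), and Snrnp25 changed by 1.45 (SE 0.18). Prpf8, the large scaffold at the heart of the spliceosome, changed by -1.50 (SE 0.35) in Model and -1.66 (SE 0.35) in LIPUS against Control. The helicase gene Snrnp200 changed by -0.81 (SE 0.22) in Model and by -0.99 (SE 0.22) in LIPUS. Wdr77, which works with Prmt5 in Sm protein methylation, changed by 1.44 (SE 0.25) in Model. Casc3 of the exon junction complex fell by 3.69 (SE 0.84), and the regulators Celf2 and Rbfox2 fell by 1.79 (SE 0.38) and 1.31 (SE 0.20).

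In LIPUS against Model, Lsm1 (-0.90, SE 0.21), Ptbp1 (-0.73, SE 0.19), Tra2b (-0.71, SE 0.14) and Puf60 (-0.53, SE 0.14) fell after rescaling. Ptbp1 represses exons, Tra2b activates them, and Puf60 helps to recognise the 3′ splice site. All 4 had been called higher in Model against Control after rescaling, though Ptbp1 at -0.49 and Puf60 at -0.03 turned under the sum without secretory genes, and the 2 comparisons share the Model samples. In LIPUS against Control the lowest calls also included Son (-1.12, SE 0.25) and Srrm2 (-1.08, SE 0.30), both large proteins of nuclear speckles.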

How the data were processed

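RNA-seq of rat prostate was measured in 15 samples, 5 each in Control, Model and LIPUS. The deposited table holds FPKM, made by the authors from reads per gene, gene length and library size. The tools named, without role or order, per the submitters' processing notes are HTSeq, DESeq2, fastp, SAMtools, HISAT2 and R 3.2.0, and the build is rn6. Per the labels' protocols, total RNA was extracted with TRIzol. The strand of the libraries is not given in the sources used here, so overlapping antisense genes cannot be told apart.

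FPKM were fitted as log2(FPKM + 0.1) in limma 3.58.1 (R 4.3.3) with an intensity trend, all 15 samples and 1 mean per group. Genes above 0.5 FPKM in at least 5 samples were tested, and p-values were adjusted over all of them. Rescaled values are FPKM divided by a median-of-ratios factor over 10300 nuclear genes, with a Control geometric mean of 1. Whole reads and gene lengths were recovered from FPKM. All 22436 rows gave whole reads within 0.001, and the sums were 99.99% to 99.999% of the library totals. For 1802 rows above 0 in only 1 library this is no check. The recovered reads gave depth, lengths and an added alternative, limma-voom, in place of a planned count test that FPKM do not allow. Libraries held 29672833 to 36401010 reads. Libraries of a group differed far beyond sampling noise, so none was a copy. On simulated data for Model against Control, with 200 of 12477 genes changed, the test recovered 26.0% of 2-fold and 68.0% of 4-fold changes with 6 false calls.

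The genes and lists were chosen with earlier results of these data known. Named genes were up to 5 highest and 5 lowest calls in each comparison and scaling whose higher group averaged 1 FPKM or more, the 2 most abundant genes of each family in Control, all calls of LIPUS against Model after rescaling, genes failing the filter and genes called both ways. Other splicing genes were up to 4 highest and 4 lowest calls. Further genes in the text complete their families and were named after their values were seen. Alternatives changed the pseudocount, filter, scaling, weights, samples and replicate block. Promoters came from RefSeq (GRCr8), with 49 of 53 genes matched, while expression values use rn6. Figures were drawn with matplotlib 3.10.9.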

Additional observations from a re-analysis of the deposited data

Results flagged for a closer look

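Levels of 25 named splicing genes and 3 summed shares were examined for a library far from the other 4 of its group, by Dixon's test at 5%. Of 159 groups of samples 18 were flagged, where chance flags about 1 in 20, or 7.95. Model 7 accounts for 12 of them, Control 8 for 4, and LIPUS 10 and Model 9 for 1 each.

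Model 7 was high among the Model libraries as deposited for Hnrnpr (9.48 FPKM, beside 0.25 to 1.19), Hnrnpul2 (20.9, beside 2.08 to 6.84), Sf3a2 (6.70, beside 0.503 to 1.85), Sf3b1 (30.9, beside 11.4 to 16.6), Sf3b3 (16.1, beside 2.91 to 4.66), Sf3b4 (10.9, beside 0.744 to 2.86) and Sf3b6 (109.8, beside 31.7 to 52.6). After rescaling it was high for Hnrnpr (14.1), Sf3a2 (9.95), Sf3b3 (23.9) and Sf3b4 (16.2). Its summed share of nuclear reads was 0.927%, beside 0.483% to 0.537%. Model 7 was not low for depth, with 32499723 reads. Its Pbsn level was 304 FPKM as deposited and its Msmb level 4.63 FPKM, beside at least 71781 and 23584 FPKM in the other Model libraries. The part of that in the splicing gene values was not tested.

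Control 8 was high for Hnrnpa1 (88.5 FPKM, beside 52.1 to 62.3), Snrpd2 (154, beside 92.3 to 108) and Sf3b4 (14.3, beside 10.9 to 11.4), and for Sf3b4 after rescaling (13.4, beside 11 to 11.6). LIPUS 10 was high for rescaled Hnrnpa3 (129, beside 84.3 to 94.8). Model 9 was high for rescaled Srsf6 (82.1, beside 52.3 to 56.7).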

How the results depend on the processing

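LIPUS against Control as deposited had 36 to 44 calls, all lower, under the alternatives run. Leaving out 1 library gave 14 to 29 calls in Model against Control as deposited and 17 to 25 after rescaling. It gave 0 to 24 and 0 to 18 in LIPUS against Model, and 36 to 41 and 8 to 19 in LIPUS against Control. Without Model and LIPUS samples numbered 7, chosen after seeing the data, Model against Control as deposited had 32 calls, and LIPUS against Model had 26 and 18. Array weights gave 37 and 35 calls in Model against Control and 18 and 13 in LIPUS against Model. Only the groups compared gave 0 and 0 in LIPUS against Model, and no filter gave 3 and 0. Limma-voom on recovered reads, added after seeing the data, gave 0 after rescaling there. Other scalings gave 35 calls in Model against Control (sum without secretory genes). In LIPUS against Model they gave 0 (nuclear sum), 7 (sum without secretory genes) and 1 (centred on the median splicing gene). The nuclear sum gave 7 in LIPUS against Control.

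Pairing by replicate number was not seen in the values. Of 15 same-numbered pairs 3 had a correlation above 0.1 (range -0.417 to 0.238), and 5 of 30 correlations were best with the own number. Other differences between libraries can hide a pairing, so these correlations do not settle whether the samples were paired. With the replicate block, calls were 20 and 20 in Model against Control, 0 and 0 in LIPUS against Model, and 40 and 12 in LIPUS against Control, as deposited and rescaled.

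Single genes turned sign only under other scalings. Under the sum without secretory genes, Model against Control gave Sf3b5 -0.27, Srsf6 -0.38, Hnrnph2 -0.46, Snrpg -0.02, Hnrnpab -0.52, Hnrnpa3 -0.21, Ptbp1 -0.49, Puf60 -0.03, Lsm7 -0.32 and Lsm3 -0.10. LIPUS against Control gave Hnrnpa3 -0.16, Snrpd1 -0.01 and Puf60 -0.18. Under the nuclear sum Hnrnpab was -0.03 and Ptbp1 -0.00, and under quantile normalization Hnrnpab was -0.09. Of 3369 single gene alternatives, 2888 kept their call and 465 lost it without a change of sign. The cause was not tested. The planned count test was not run because the unit is FPKM. Depth limits Snrpd2l, with 0 to 25 reads per library, and Snrpep2, with 0 to 12. Srsf12 varied between libraries of like depth, with 290 reads in Model 7 and 0 in Model 9.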
